A study of Homo sapiens with 6 samples.

Results

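The genes described here were the well expressed long intergenic noncoding RNAs (lincRNAs) of WM164 melanoma cells. They were chosen by their biotype and their mean level, as all rows of the gene table typed lincRNA whose raw expected count averaged at least 500 over the 6 libraries, which left 61 of 7252 lincRNA rows and of 60504 rows in all. WM164 is a human melanoma line with a BRAF V600E genotype, shared by every library. Cells carried either an empty expression vector (EV, 3 libraries) or an HDAC8 expression vector (HDAC8, 3 libraries), and the comparison asks how expression of HDAC8, a class I histone deacetylase, changes the transcriptome. Transfected cells were kept in hygromycin, and the labels number the libraries as biological replicates without naming separate transfections or cultures. The p-values therefore measure the spread between these libraries, which may be technical.

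Long noncoding RNAs are transcribed and often spliced like messenger RNAs but are not known to be translated into conserved proteins. Some build nuclear bodies or bind chromatin, some hold proteins away from their targets, and others serve mainly as the precursor from which a microRNA or a small nucleolar RNA (snoRNA) is cut. Many are expressed in a narrow set of tissues, and melanoma cells are known for lineage-restricted ones such as SAMMSON.

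Total counts ran from 34741083 to 42041462 per library. HDAC8 itself ran from 383.8 to 478.8 normalized counts in EV and from 445.5 to 484.8 in HDAC8, with a fitted log2 difference of 0.15 (DESeq2 adjusted p = 0.856, SE 0.28), so its transcript did not check the labels. A normalized count is the expected count divided by the size factor of its library. Markers of the melanocyte lineage were present throughout, with a summed normalized count of 243681.5 to 327471.6 in EV and 136367.6 to 181340.4 in HDAC8. PMEL led this sum, with a mean of 155309.3 over the 6 libraries, and MITF itself did not pass (log2 fold change -0.20, DESeq2 adjusted p = 0.544). Of the other cell types examined, leukocyte markers summed to at most 14.7 in EV and to 50.1 to 111.6 in HDAC8, endothelial markers to 97.5 to 202.9 and 114.3 to 218.0 with CDH5 at 0, keratinocyte markers to 38.3 to 86.7 and 0 to 41.0 with KRT1 at 0, and fibroblast markers to 2470.3 to 2877.4 and 1461.3 to 2423.1 with DCN at 0. LUM alone, with a mean of 2045.7 over the 6 libraries, made up most of the fibroblast sum. The share of mitochondrially encoded RNA was 9.66% to 12.8% in EV and 4.46% to 7.94% in HDAC8. The part of these differences in the results was not tested, and in bulk RNA fewer cells of a type and less RNA per cell cannot be told apart.

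Of the 61 lincRNAs, 18 (29.5%) passed both thresholds in the methods of the study, by DESeq2 over the whole table. These were a Benjamini-Hochberg adjusted p under 0.05 and a fold change of 0.58 or more on the log2 scale. The legend to the study's own gene counts names the same fold change with a p under 0.05 that was not adjusted. Across all 21021 genes with an adjusted p, 11.0% passed both thresholds. There were 7 lincRNAs higher in HDAC8 cells (11.5%, against 5.57% of all genes) and 11 lower (18.0%, against 5.44%). A high count makes a difference easier to detect. Among the 8601 protein-coding genes with the same minimum mean count, 8.6% passed as higher and 7.63% as lower, and among all 1268 lincRNA rows with an adjusted p, 3.55% and 3.47%. By edgeR, 7 lincRNAs were higher and 11 lower (background 4.13% and 3.99%, 8.12% in either direction), and by limma-voom 6 and 11 (3.8% and 4.14%, 7.94% in either). HDAC8 1 stood apart from the other HDAC8 libraries as a whole and in several rows described further on. The chi-square per degree of freedom over expressed genes was 167.6 against HDAC8 2 and 112 against HDAC8 3. Between HDAC8 2 and HDAC8 3 it was 27.6. Mitochondrially encoded RNA took 4.46% of HDAC8 1, 7.94% of HDAC8 2 and 7.63% of HDAC8 3. Without HDAC8 1, 8 lincRNAs were higher and 12 lower (5.34% and 6.65% of all genes). The median log2 fold change of the lincRNAs was -0.14, and that of all genes was 0.00 to 2 decimals.

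The minimum acts on the mean of both groups, so it lets in a lincRNA that is high in only 1 of them. There were 47 lincRNAs with a group mean of at least 500 in both groups, of which 6 passed as higher (12.8%) and 5 as lower (10.6%). Over all genes these shares were 5.57% and 5.44%, and over protein-coding genes with the same minimum mean count 8.6% and 7.63%. The other 14 lincRNAs reached 500 in 1 group only. Of these, 1 passed as higher (AC025419.1, 7.14%) and 6 as lower (OVAAL, LINC00504, HCG22, PWAR6, AL035665.1 and AC016831.5, 42.9%). Each of them met the minimum only through the group in which it was high, so its difference is not independent of the choice. Just inside the minimum were LINC00847 (mean raw count 502.0, log2 fold change 0.01) and HCG22 (505.5, -2.53), and just outside were JPX (494.2, -0.42) and LINC00997 (482.2, -0.38). All 18 lincRNAs that passed had groups that did not overlap, as did 2260 of the 2313 genes that passed in the whole table. In all, 31 of the 61 lincRNAs (50.8%) had groups apart, against 29.1% of all genes. The share was 44.7% for the 47 lincRNAs at 500 or more in both groups. It was 39.1% for protein-coding genes with the same minimum mean count.

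**Figure D1:**
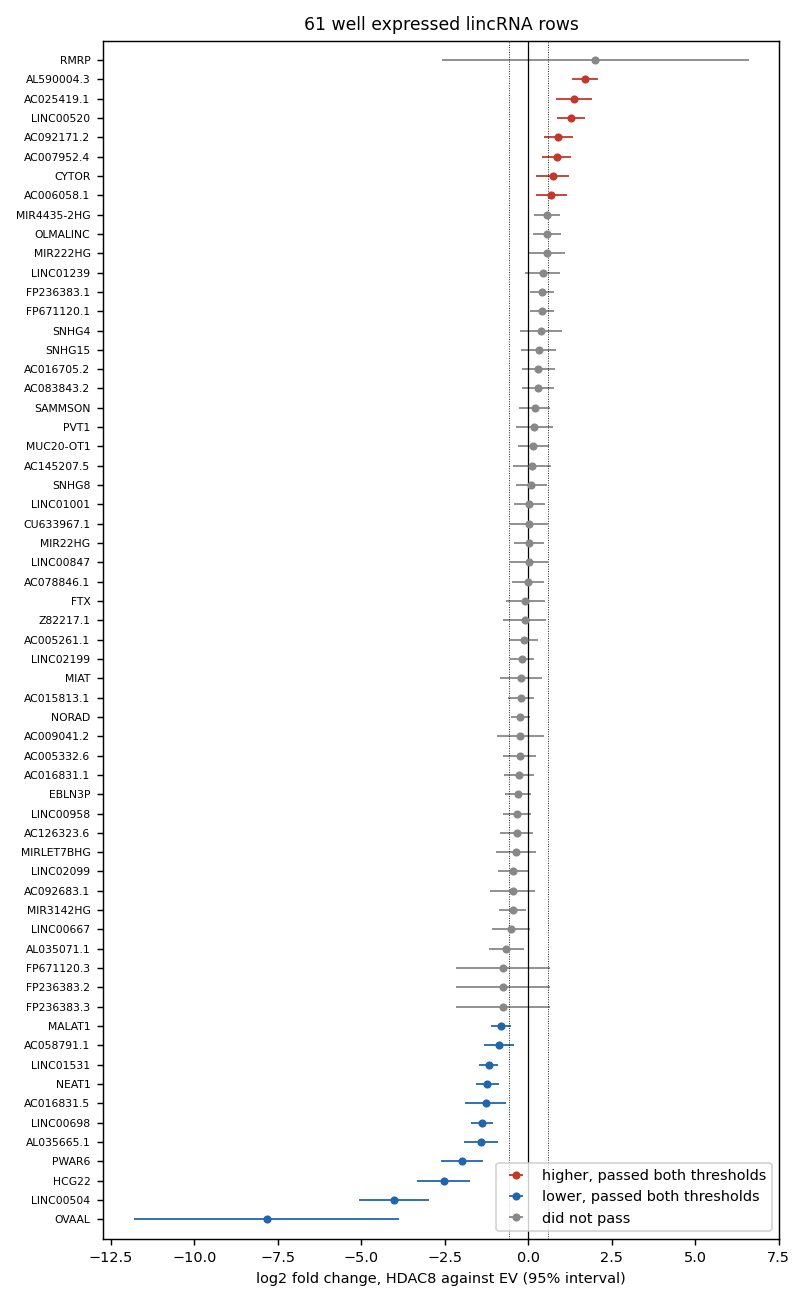
Log2 fold change (HDAC8 against EV, horizontal axis) of each of the 61 lincRNAs, ordered by size, with bars for the 95% interval from the DESeq2 standard error and colour for the test result. The 11 lower lincRNAs run from -7.83 (OVAAL) to -0.82 (MALAT1), the 7 higher ones from 0.69 (AC006058.1) to 1.71 (AL590004.3), and RMRP has a wide interval that spans 0.

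NEAT1 and MALAT1, which are retained in the nucleus, fell in HDAC8 cells. NEAT1, the RNA around which paraspeckles form, reached 124027.6, 77781.7 and 101812.8 normalized counts in EV and 52033.4, 38254.0 and 39754.4 in HDAC8. Every HDAC8 library was below every EV library. Its log2 fold change was -1.22 (DESeq2 adjusted p = 1.59e-10, SE 0.17), a 2.33-fold lower level. MALAT1, a nuclear speckle RNA transcribed from the same stretch of chromosome 11, had 327356.8, 263457.0 and 346578.3 in EV and 145107.2, 205959.5 and 181006.7 in HDAC8. Again the groups did not overlap, and the log2 fold change was -0.82 (DESeq2 adjusted p = 4.78e-06, SE 0.15). In GENCODE release 44 on GRCh38, NEAT1 lies at chr11:65422774-65445540 and MALAT1 at chr11:65497640-65508073, both on the plus strand and 52.1 kb apart. Together they took 1.23%, 0.869% and 1.13% of all counts in EV and 0.551%, 0.635% and 0.584% in HDAC8. Per kilobase of exon, MALAT1 had 29946.7 normalized counts in EV, NEAT1 4445.4 and NORAD 3973.2, the highest levels after the 18S ribosomal rows described further on. Of the list of nuclear body and chromosome-bound RNAs, 11 were tested and none passed as higher (5.57% of all genes). NEAT1 and MALAT1 were the 2 that passed as lower (5.44% of all genes). NORAD, a cytoplasmic RNA that holds PUMILIO proteins, averaged 21459.3 ± 1470.3 in EV and 18205.0 ± 2865.7 in HDAC8 (SD, n = 3 each). Its log2 fold change of -0.24 did not pass (DESeq2 adjusted p = 0.339), although its groups did not overlap.

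OVAAL, LINC00504 and HCG22 showed the largest falls, and all met the minimum of 500 through the EV libraries alone. OVAAL, named for its amplification in ovarian adenocarcinoma and lying at chr1:180509380-180566523, had 1561.4, 1388.8 and 1248.2 normalized counts in EV. In HDAC8 it had 0, 0 and 18.5, so that all but 1 HDAC8 library held no read of it. The log2 fold change was -7.83 with a 95% interval of -11.81 to -3.86 (DESeq2 adjusted p = 0.00187, SE 2.03). The adjusted p rose to 0.0816, 0.0619 and 0.0726 when EV 1, EV 2 or EV 3 was left out, with log2 fold changes of -7.75, -7.84 and -7.91. Without HDAC8 3, both remaining HDAC8 libraries were at 0 and no fold change is given. LINC00504 (chr4:14470465-14888169) had 4207.0, 2957.8 and 4366.1 in EV and 97.5, 268.3 and 345.2 in HDAC8. No HDAC8 library came near the lowest EV library, and the level was 16.2-fold lower (log2 fold change -4.02, SE 0.53, DESeq2 adjusted p = 3.39e-12). HCG22, a gene of the HLA region on chromosome 6, had 610.3, 864.8 and 1064.9 in EV and 106.0, 254.0 and 78.4 in HDAC8. It was 5.8-fold lower (DESeq2 adjusted p = 3.29e-08), and release 44 types it as protein-coding rather than as a long noncoding RNA.

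LINC00698 and LINC01531 fell with little spread between libraries and kept well over 1000 counts in both groups. LINC00698 (chr3:62950430-63125062) had 5545.0, 5099.3 and 4600.5 normalized counts in EV and 2245.4, 1865.0 and 1681.3 in HDAC8. LINC01531 (chr19:35399511-35419385) had 6179.4, 6729.9 and 6468.3 in EV and 2578.9, 2974.1 and 2976.1 in HDAC8. In both, every EV library was above every HDAC8 library. The log2 fold changes were -1.40 (DESeq2 adjusted p = 1.03e-14, SE 0.17) and -1.18 (DESeq2 adjusted p = 1.02e-14, SE 0.14). AL035665.1, on chromosome 20, averaged 1090.8 ± 201.1 in EV and 410.9 ± 77.2 in HDAC8 (SD, n = 3 each) and was 2.66-fold lower (DESeq2 adjusted p = 2.98e-06).

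Some of the falls lay together on a chromosome. PWAR6, a transcript of the imprinted Prader-Willi and Angelman region of chromosome 15, had 1078.0, 607.1 and 947.7 normalized counts in EV and 223.2, 274.5 and 167.7 in HDAC8. All HDAC8 libraries were lower, with a log2 fold change of -1.98 (DESeq2 adjusted p = 2.99e-08, SE 0.32). PWAR5, SNHG14 and SNRPN, transcripts of that region that were not typed lincRNA, fell as well. PWAR1, another of them, had 39.8, 30.8 and 26.6 normalized counts in EV and 0, 17.4 and 43.6 in HDAC8, with overlapping groups. Its log2 fold change of -0.68 did not pass (DESeq2 adjusted p = 0.866). PWAR5 had a log2 fold change of -1.52, SNHG14, the long host of the snoRNAs of the region, -1.25, and SNRPN, the protein-coding gene upstream of it, -1.21 (DESeq2 adjusted p = 1.23e-08, 9.2e-10 and 2.82e-08). SNRPN was added after its values were seen, and SNRPN, PWAR6 and SNHG14 can share reads where their transcripts overlap. Of the list of imprinted RNAs, 10 were tested, 3 passed as lower (PWAR6, PWAR5 and SNHG14) and 2 as higher (GNAS-AS1, 2.57, and H19, 1.05). Over all genes the shares were 5.44% and 5.57%.

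On chromosome 7, AC016831.5 and AC058791.1 lie 4.26 kb apart on opposite strands. AC016831.5 had 1065.4, 551.0 and 946.7 normalized counts in EV and 282.2, 402.5 and 379.0 in HDAC8, and AC058791.1 had 1480.6, 1152.5 and 1717.1 against 921.8, 706.7 and 728.5. The groups stayed apart in both. The log2 fold changes were -1.27 (DESeq2 adjusted p = 0.000879, SE 0.31) and -0.88 (DESeq2 adjusted p = 0.00222, SE 0.23). Without EV 3, AC058791.1 had -0.75 and an adjusted p of 0.0673. AC016831.1, which shares the name stem of AC016831.5 but has no entry in release 44, did not pass. Its groups overlapped, with a log2 fold change of -0.29 (DESeq2 adjusted p = 0.529). LINC-PINT, a p53-induced RNA of the same locus that the table types as a processed transcript, had -0.83 (DESeq2 adjusted p = 0.00318). It was the only one of the 11 tested RNAs of the p53 and growth list to pass, against 11.0% of all genes. Whether the rows of this locus share reads was not examined.

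There were 7 lincRNAs that rose, and AL590004.3, AC025419.1 and LINC00520 rose most. Of these, AC025419.1 met the minimum of 500 through the HDAC8 libraries alone. AL590004.3, a single-exon transcript at chr6:3904920-3912072, had 869.3, 665.0 and 673.8 normalized counts in EV and 2721.7, 2276.7 and 2217.1 in HDAC8. The lowest HDAC8 library was far above the highest EV library. Its log2 fold change of 1.71 (DESeq2 adjusted p = 1.9e-15, SE 0.20) was a 3.27-fold higher level. AC025419.1, named MSRB3-AS1 in release 44 because it runs antisense to MSRB3, had 308.3, 326.9 and 264.0 in EV and 726.0, 709.7 and 892.9 in HDAC8. It was 2.59-fold higher (DESeq2 adjusted p = 1.36e-05), while MSRB3, a methionine sulfoxide reductase, had a log2 fold change of 0.28 (adjusted p = 0.607). Counting by strand is not stated, so reads of the pair may not be told apart. LINC00520, on the list of RNAs named in melanoma work, had 741.4, 631.3 and 786.1 in EV and 1853.8, 1473.8 and 1898.0 in HDAC8. The 2 groups did not overlap, and the log2 fold change was 1.28 (DESeq2 adjusted p = 6.5e-08, SE 0.21).

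The remaining rises were smaller. AC092171.2 averaged 624.5 ± 60.9 in EV and 1167.4 ± 36.6 in HDAC8 (SD, n = 3 each), a log2 fold change of 0.90 (DESeq2 adjusted p = 0.000578). AC007952.4, a single-exon transcript of 637 bases, averaged 994.2 ± 237.1 and 1792.1 ± 136.4, a change of 0.85 (DESeq2 adjusted p = 0.0019). Its raw expected counts were fractional in every library, as when reads are shared with other genes, so its own change is uncertain. AC006058.1 averaged 588.3 ± 44.5 and 947.4 ± 124.8, a change of 0.69 (DESeq2 adjusted p = 0.0318) that missed the threshold in 8 of the alternative fits. Among them, adjusted p was 0.147, 0.0622 and 0.164 without EV 1, EV 2 and EV 3, and 0.134 and 0.0549 without HDAC8 2 and HDAC8 3 (DESeq2).

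**Figure D2:**
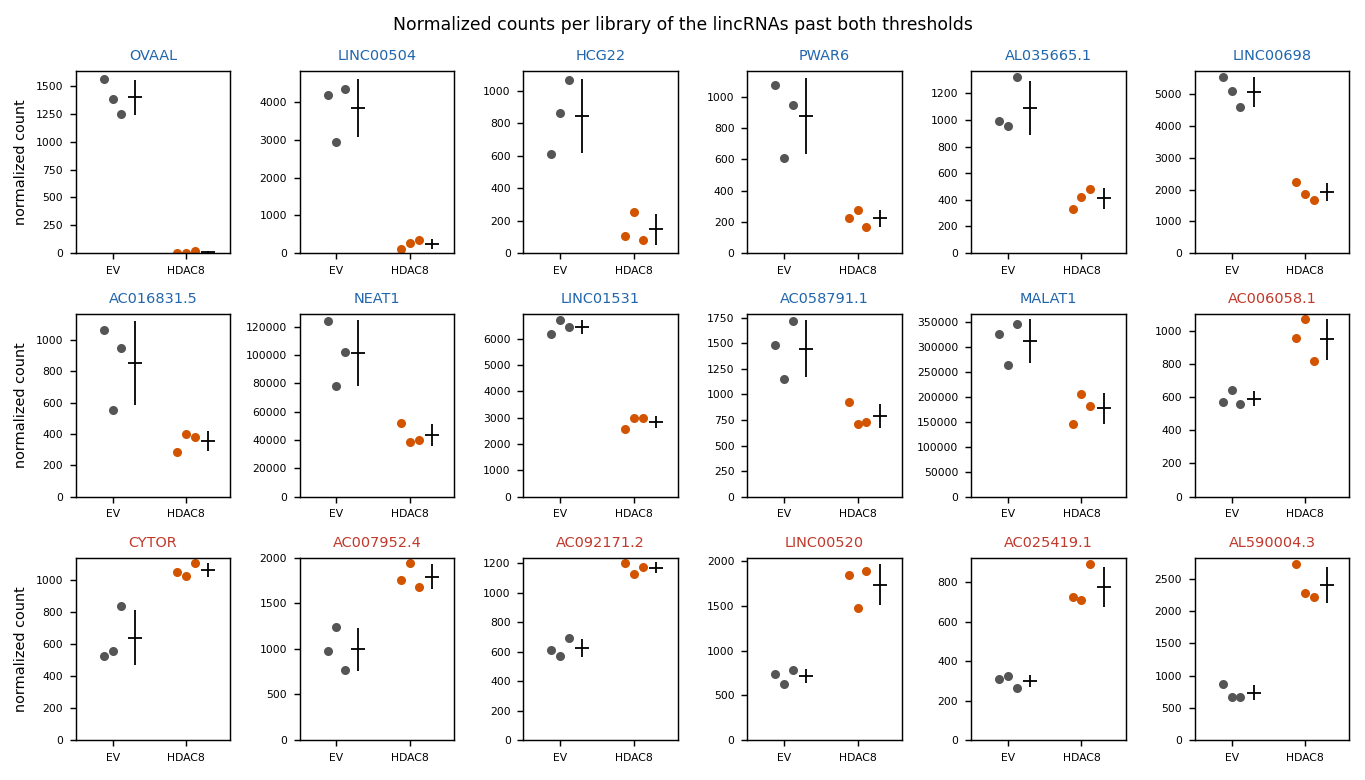
Normalized counts of the 18 lincRNAs that passed, with 1 point per library (EV grey, HDAC8 orange, 3 each), a bar for the mean ± SD, a linear axis from 0 in each panel and gene names in blue (lower) or red (higher). In each panel the HDAC8 points lie wholly above or wholly below the EV points; OVAAL has 2 HDAC8 libraries at 0.

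CYTOR and MIR4435-2HG are near-identical copies on chromosome 2 whose RNA is known from invasive carcinoma, and both carry a copy of the microRNA miR-4435. CYTOR had 524.3, 553.8 and 836.4 normalized counts in EV and 1048.3, 1020.1 and 1105.3 in HDAC8. MIR4435-2HG had 1070.6, 976.0 and 1250.1 in EV and 1683.7, 1404.1 and 1754.3 in HDAC8. All 3 HDAC8 libraries were above the EV libraries in both. CYTOR rose by 0.73 on the log2 scale (DESeq2 adjusted p = 0.034, SE 0.25). MIR4435-2HG had a log2 fold change of 0.55 (DESeq2 adjusted p = 0.0478, SE 0.20) and fell short of the fold minimum, the only lincRNA to pass the first threshold alone. Without HDAC8 2 it passed both, with 0.65 (DESeq2 adjusted p = 0.0298). CYTOR had adjusted p of 0.214, 0.162, 0.0627 and 0.153 without EV 1, EV 2, HDAC8 2 and HDAC8 3, with log2 fold changes of 0.60, 0.64, 0.76 and 0.70. Because the counts of such copies are shared out between them by the authors' counting, each gene's own change is uncertain.

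The promoter windows of RefSeq (GRCh38.p14), which run from 250 bases before a gene's start to 50 after it, were available for 20 of the lincRNAs. The start meant here is that of RefSeq, and for several of them it lies inside the gene as placed by release 44. CYTOR, LINC01531, MIR4435-2HG, LINC01001, MIR3142HG and MIRLET7BHG are among those. Of the 20 lincRNAs, 2 were higher (CYTOR and AC025419.1) and 2 lower (LINC01531 and MALAT1). The windows of CYTOR and MIR4435-2HG are shown because they are copies of each other, and those of AC025419.1 and LINC01531 because they are the other changed lincRNAs with a match. Capitals mark matches on either strand to TGANTCA (a pattern for AP-1, the Jun and Fos dimer), TCANGTG (an E-box pattern for MITF) or GGAATG (TEAD). N stands for any base, so a match need not be the factor's own site. The TGATTCA of AC025419.1 differs at N from the TGAGTCA and TGACTCA of the other windows shown. The windows are written 5′ to 3′ on the gene's strand.
CYTOR, chr2:87455177-87455476, plus strand: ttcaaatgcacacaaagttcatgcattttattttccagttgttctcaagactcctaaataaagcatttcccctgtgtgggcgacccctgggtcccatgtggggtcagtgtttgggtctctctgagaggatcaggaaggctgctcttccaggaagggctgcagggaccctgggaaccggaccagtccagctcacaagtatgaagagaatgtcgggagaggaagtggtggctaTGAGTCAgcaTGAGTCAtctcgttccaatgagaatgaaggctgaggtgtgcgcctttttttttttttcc
MIR4435-2HG, chr2:111495112-111495411, minus strand: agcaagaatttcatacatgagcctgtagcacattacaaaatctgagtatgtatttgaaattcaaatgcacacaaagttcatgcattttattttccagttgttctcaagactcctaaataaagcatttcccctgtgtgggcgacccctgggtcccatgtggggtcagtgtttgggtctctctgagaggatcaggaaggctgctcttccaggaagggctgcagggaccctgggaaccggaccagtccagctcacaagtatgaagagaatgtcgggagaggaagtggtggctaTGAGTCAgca
AC025419.1, chr12:65642323-65642622, minus strand: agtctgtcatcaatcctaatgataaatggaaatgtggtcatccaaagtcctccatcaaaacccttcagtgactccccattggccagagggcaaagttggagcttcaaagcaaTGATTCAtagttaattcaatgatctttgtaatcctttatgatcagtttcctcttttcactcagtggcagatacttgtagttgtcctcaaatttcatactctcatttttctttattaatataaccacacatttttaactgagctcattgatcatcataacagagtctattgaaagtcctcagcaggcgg
LINC01531, chr19:35405357-35405656, plus strand: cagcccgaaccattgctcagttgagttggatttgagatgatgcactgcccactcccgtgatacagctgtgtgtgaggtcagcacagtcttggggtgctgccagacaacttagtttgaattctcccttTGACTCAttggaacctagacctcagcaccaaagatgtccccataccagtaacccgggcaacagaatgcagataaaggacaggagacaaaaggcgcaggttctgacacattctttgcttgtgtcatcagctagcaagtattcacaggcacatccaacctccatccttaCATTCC
The windows of CYTOR and MIR4435-2HG share a run of 241 identical bases, offset by 59 bases. CYTOR held TGAGTCA 19 and 9 bases before its start, AC025419.1 held TGATTCA 138 bases before it, and LINC01531 held TGACTCA 123 bases before it. MALAT1 held none of the motifs. Over all 35116 windows of the table, 7.71% held TGANTCA, 12.5% TCANGTG and 14.0% GGAATG. Among the 20 lincRNAs the counts were 6, 3 and 5. The TGAGTCA of MIR4435-2HG and the first of CYTOR are the same site of the shared run, so this copied stretch counts for both windows among the 6. A match is a stretch of letters and was not tested as a binding site, and the windows were matched for too few changed lincRNAs for the directions to be compared.

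Among the lincRNAs that carry microRNAs, CYTOR alone passed. The microRNAs themselves are too short for these libraries, so the values are those of the host transcripts. The mature sequences, from RefSeq (GRCh38.p14), belong to hosts among the 61, with the seed (bases 2 to 8) in capitals, and are shown because 2 of the hosts carry pairs with a shared seed.
hsa-miR-221-3p: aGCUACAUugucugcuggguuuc
hsa-miR-222-3p: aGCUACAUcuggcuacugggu
hsa-let-7a-5p: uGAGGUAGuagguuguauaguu
hsa-let-7b-5p: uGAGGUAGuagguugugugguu
hsa-miR-146a-5p: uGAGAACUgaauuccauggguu
hsa-miR-22-3p: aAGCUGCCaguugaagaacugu
hsa-miR-4435: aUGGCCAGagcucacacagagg
The 2 microRNAs of MIR222HG have the seed GCUACAU and the 2 let-7 members of MIRLET7BHG the seed GAGGUAG. MIR222HG had 520.1, 371.7 and 450.2 normalized counts in EV and 533.6, 663.6 and 772.1 in HDAC8. Its groups did not overlap, but the log2 fold change of 0.55 had a 95% interval of -0.00 to 1.11 and did not pass (DESeq2 adjusted p = 0.215). MIRLET7BHG had 1168.1, 1213.2 and 927.0 in EV and 1314.3, 552.0 and 703.5 in HDAC8. HDAC8 1 was the highest of all and the other 2 HDAC8 libraries the lowest, so the log2 fold change of -0.36 (DESeq2 adjusted p = 0.545) became -0.82 without HDAC8 1 (adjusted p = 0.00762). MIR3142HG, host of miR-146a, had 1908.5, 1560.6 and 2102.3 against 1420.3, 1111.2 and 1482.1. Its HDAC8 libraries were all lower, with a log2 fold change of -0.47 (DESeq2 adjusted p = 0.115). MIR22HG averaged 742.4 ± 68.1 and 751.7 ± 76.3 (SD, n = 3 each), with a log2 fold change of 0.02 and an interval of -0.44 to 0.48. Of the 27 microRNA hosts tested across all biotypes, 2 passed as higher (MIR9-3HG, 2.39, and H19, 1.05) and 2 as lower (MIR99AHG and MIR181A1HG, -1.18). Over all genes, 5.57% and 5.44% passed, 11.0% in either direction. MIR99AHG was at 0 in every HDAC8 library and had 18.9, 42.0 and 72.9 in EV.

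The snoRNA hosts among the lincRNAs, SNHG4, SNHG8 and SNHG15, did not pass. Their log2 fold changes were 0.39, 0.09 and 0.31, with 95% intervals of -0.24 to 1.00, -0.36 to 0.55 and -0.22 to 0.83. Among the 27 hosts of any biotype that were tested, 3 passed as higher and 1 as lower, against 5.57% and 5.44% of all genes (11.0% in either direction). SNHG1 had 4876.0, 4396.0 and 5327.6 normalized counts in EV and 9084.4, 9343.3 and 9146.1 in HDAC8, the most even of these rises. SNHG12 and SNHG6 had log2 fold changes of 0.69 and 0.73 (DESeq2 adjusted p = 0.00328 and 0.0346), and the host that passed as lower was SNHG14.

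SAMMSON, the melanoma lineage RNA that lies 31.2 kb from MITF and supports mitochondrial translation, had 1029.7, 670.6 and 950.6 normalized counts in EV and 1091.1, 1021.1 and 915.8 in HDAC8. The groups overlapped, and its log2 fold change was 0.19 with a 95% interval of -0.28 to 0.66. MITF had -0.20 (DESeq2 adjusted p = 0.544, SE 0.16). PVT1, MIAT and FTX likewise had groups that overlapped, with log2 fold changes of 0.17, -0.22 and -0.09. Their 95% intervals were -0.38 to 0.73, -0.85 to 0.41 and -0.66 to 0.49, so changes within these limits are not excluded. Of the RNAs named in melanoma work, 13 were tested, with 2 higher (LINC00520 and H19) and 1 lower (MALAT1). The neural and neural crest list had 1 of 8 higher (MIR9-3HG) and none lower, the stress list 2 of 11 higher (H19 and CYTOR) and 2 lower (NEAT1 and MALAT1), and the invasion list 1 of 12 higher (CYTOR) and none lower. The lists share RNAs, so the counts overlap, and over all genes 5.57% passed as higher and 5.44% as lower.

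The 43 lincRNAs that did not pass had log2 fold changes from -0.76 (the 18S rows) to 2.00 (RMRP), and 13 of them had groups that did not overlap. OLMALINC, named from oligodendrocyte maturation and lying 8.27 kb from SCD, had 873.5, 733.1 and 766.4 normalized counts in EV and 1087.7, 1083.6 and 1314.4 in HDAC8. All HDAC8 libraries were higher, yet the log2 difference of 0.55 missed both thresholds (DESeq2 adjusted p = 0.0708; 0.60 and 0.0492 without HDAC8 1), and SCD, the stearoyl-CoA desaturase, stood at 0.04. AL035071.1 had 1061.2, 810.7 and 851.1 in EV and 434.4, 687.2 and 600.0 in HDAC8. Its HDAC8 libraries were all lower, with a log2 difference of -0.66 (DESeq2 adjusted p = 0.0804; -0.81 and 0.0403 without HDAC8 2). LINC02099 (-0.46), LINC00667 (-0.52), LINC02199 (-0.18), LINC01239 (0.43) and AC016705.2 (0.30, named ARNT2-DT in release 44) also had groups apart without passing. LINC00847, CU633967.1, LINC01001 and AC078846.1 lay nearest to 0, at 0.01, 0.02, 0.03 and -0.01 on the log2 scale. LINC00958 (-0.34), EBLN3P (-0.30), a pseudogene of a bornavirus-derived element, and MUC20-OT1 (0.16) were between these, each with groups that overlapped. Over all 61, the median standard error of the log2 fold change was 0.25, and the median coefficient of variation between libraries of a group was 14.5% in EV and 15.7% in HDAC8.

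Among the 61 rows, FP671120.3, FP236383.3 and FP236383.2, held the same values in all 6 libraries and were 1 measurement in 3 rows. They lie on the minus strand of chromosome 21 inside the 18S ribosomal RNA genes RNA18SN2, RNA18SN1 and RNA18SN3, which are on the other strand. FP671120.1 and FP236383.1 were a further identical pair, and 58 rows were distinct. The 18S rows had 74327.0, 156816.8 and 193523.2 normalized counts in EV and 12577.4, 158964.4 and 79256.1 in HDAC8. HDAC8 1 stood lowest and the groups overlapped, with a log2 fold change of -0.76 that did not pass (DESeq2 adjusted p = 0.613, SE 0.71). It was -0.25 without HDAC8 1 and -1.62 without HDAC8 2, and passed in neither. These rows took 0.105% to 1.47% of a library's counts. RMRP, the RNA of the RNase MRP enzyme that processes ribosomal RNA, had 75.5, 544.5 and 706.3 in EV and 4752.5, 0 and 570.6 in HDAC8. HDAC8 1 held most of its HDAC8 counts and HDAC8 2 none, so the log2 difference of 2.00 was not detectable beyond the spread (DESeq2 adjusted p = 0.717, SE 2.34). Without HDAC8 1 it was -0.63.

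**Figure D3:**
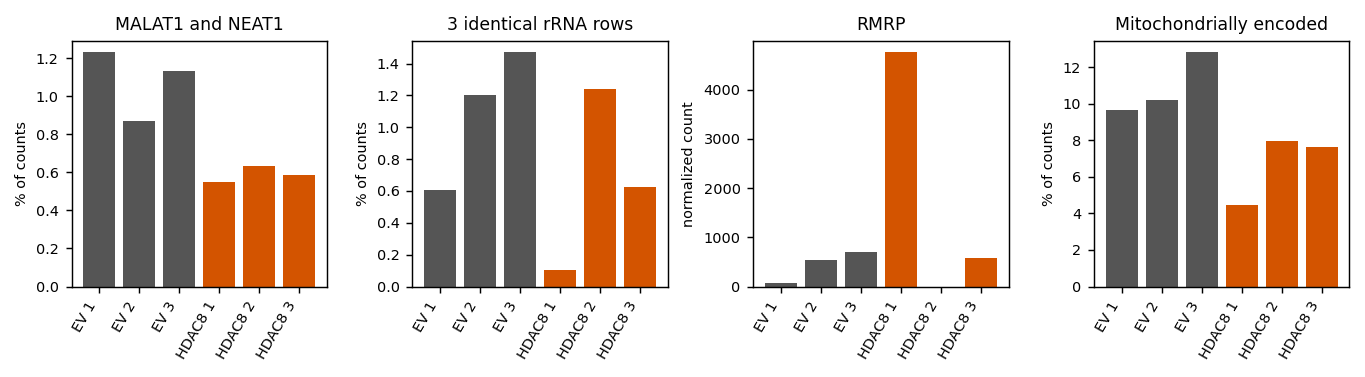
Bars per library (EV grey, HDAC8 orange, 3 each) for the share of all counts in MALAT1 and NEAT1, the share in the 3 identical 18S rows, the normalized count of RMRP and the share of mitochondrially encoded transcripts. MALAT1 and NEAT1 take 0.869% to 1.23% in EV and 0.551% to 0.635% in HDAC8, whereas the 18S rows and RMRP vary within the HDAC8 group.

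Neighbouring genes were set beside the lincRNAs to see whether changes ran together. Of the 61, 41 had a protein-coding gene within 100 kb and 12 of these overlapped it. Of the 35 nearest genes that had an adjusted p, 4 passed (11.4%, against 11.0% of all genes). FRMD8, a protein of the iRhom sheddase complex 9.25 kb from NEAT1, rose by 0.80 on the log2 scale while NEAT1 fell (DESeq2 adjusted p = 0.000712). CADPS, a regulator of vesicle release and the nearest coding gene to LINC00698, rose by 0.65 while LINC00698 fell (DESeq2 adjusted p = 0.00636). FBXL18, which overlaps AC092171.2 on the opposite strand, rose by 0.67 with it (DESeq2 adjusted p = 0.0149), and their reads may not be told apart. WDR81, which overlaps MIR22HG on the opposite strand, rose by 0.93 (DESeq2 adjusted p = 0.000187) while MIR22HG had 0.02. ACBD6, beside OVAAL, had -0.10 (DESeq2 adjusted p = 0.902).

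**Figure D4:**
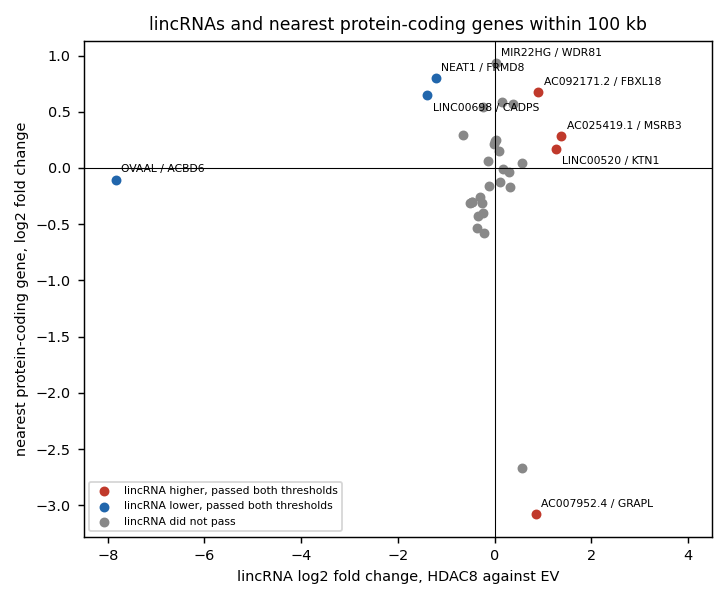
Log2 fold change of each lincRNA (horizontal) against that of its nearest protein-coding gene within 100 kb (vertical), for 33 pairs with an adjusted p for both, coloured by the lincRNA's test result. Points lie on both sides of each axis: NEAT1 with FRMD8 and LINC00698 with CADPS are opposite in sign, AC092171.2 with FBXL18 alike.

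By exon number, 15 of the lincRNAs had 1 exon in release 44, with 3 higher and 2 lower. Those with more numbered 42, with 4 higher and 8 lower. The other 4 had no entry in that release. Among all genes, 5.57% passed as higher and 5.44% as lower. A difference by exon number was not tested.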

How the data were processed

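RNA-seq libraries of WM164 cells (3 EV, 3 HDAC8) were compared, with groups and replicate numbers taken from the labels. The authors used Trimmomatic for trimming, STAR for alignment and RSEM for quantification. Expected counts per gene were deposited by the authors without scaling, and reads that match several genes are shared among those genes. The build, annotation release and use of strand are not given in the sources used here. Columns holding the authors' own comparison were not used. The lincRNA type is the one in the table.

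Expected counts were rounded. DESeq2 1.42.0 (R 4.3.3) was run as a two-sided Wald test on 26162 genes that summed to 10 or more. No adjusted p was given for 5141 of them. Total counts of 34741083 to 42041462 per library limit the precision, and intervals are at the 95% level from the standard error. Positions, exon lengths and biotypes came from GENCODE release 44 (GRCh38) by identifier, which matched 57 of the 61 lincRNAs. Promoters and microRNAs came from RefSeq (GRCh38.p14).

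The members and lists were chosen with earlier results of these data known. Named genes were the 10 largest rises and 10 largest falls among lincRNAs that passed without overlap, the 10 most abundant, those on the 9 role lists, the rows next to the minimum of 500, their nearest genes and HDAC8. Other list RNAs that passed are named too, and further lincRNAs were named after their values were seen. The nearest genes of 2 lincRNAs are counted but not reported here. Alternatives were edgeR 4.0.16, limma-voom (limma 3.58.1), other size factors, filters and thresholds, no mitochondrial genes, a replicate block, each library left out and, added after seeing the data, identical rows counted once or removed. The fits were tested on simulated data. Pairs of libraries in a group differed by more than sampling noise, so none was a repeat deposit.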

Additional observations from a re-analysis of the deposited data

How the results depend on the processing

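The limits are 3 libraries a group and totals of 34741083 to 42041462. Of the 18 lincRNAs that passed, 14 kept their call under both thresholds in every alternative fit tried, and 8 of those 14 also in the DESeq2 test against the fold minimum itself. OVAAL, AC058791.1, AC006058.1 and CYTOR did not, and AL035071.1, MIRLET7BHG, OLMALINC and MIR4435-2HG gained a call in some fits (OLMALINC without HDAC8 1 and AL035071.1 without HDAC8 2 among them). The cause was not tested.

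The counts of 7 higher and 11 lower lincRNAs became 2 and 7 in the test against the fold minimum, 3 and 6 with a minimum mean of 1000 (30 lincRNAs), and 6 and 5 with a mean of at least 500 in both groups. Leaving out 1 library gave 5 to 8 higher and 9 to 12 lower. Over all genes, 1170 higher and 1143 lower became 292 and 291 against the fold minimum and 1839 and 1856 at an unadjusted p under 0.05. Leaving out 1 library gave 877 to 1218 higher and 746 to 1378 lower. EdgeR gave 7 higher and 11 lower lincRNAs and limma-voom 6 and 11.

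Members of the role lists that were higher numbered 2, and 1 with upper-quartile size factors, with the replicate block or against the fold minimum, and 1 to 2 when 1 library was left out. Of neighbouring pairs that passed in opposite directions, 1 remained within 50 kb in place of 2. Among the named lincRNAs, log2 fold changes that turned sign with upper-quartile size factors were -0.034 for MIR22HG, -0.032 for CU633967.1, -0.046 for LINC00847 and -0.028 for LINC01001. With total-count size factors AC078846.1 had 0.034. By limma-voom LINC00847 had -0.021 and RMRP -1.253, and with the replicate block LINC00847 had -0.003 and RMRP -0.37. With 1 library left out, values that changed sign among the named lincRNAs ranged from -0.32 to 0.073 for FTX, -0.51 to 0.00 for MIAT, -0.061 to 0.099 for MIR22HG, -0.14 to 0.43 for PVT1, -0.004 to 0.533 for SNHG15, -0.158 to 0.26 for SNHG8, -0.632 to 2.592 for RMRP, -0.099 to 0.343 for MUC20-OT1, -0.176 to 0.141 for LINC00847, -0.081 to 0.117 for AC078846.1, -0.178 to 0.129 for CU633967.1 and -0.079 to 0.124 for LINC01001, none of which passed in these fits. Other size factors moved the median of all genes by at most 0.055.

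Libraries with the same number did not deviate together (correlations of -0.03, -0.07 and 0.04), so the numbers do not pair them, and the replicate block gave 5 higher and 11 lower lincRNAs. In that fit CYTOR had an adjusted p of 0.0511 and AC006058.1 of 0.087 (DESeq2).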
